A study of Capra hircus with 6 samples.

Results

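The genes described here build and control the hypoxia-inducible factors (HIFs), the transcription factors through which animal cells respond to low oxygen. They are 3 HIF-alpha subunits (HIF1A, EPAS1 and HIF3A), 2 HIF-beta subunits (ARNT and ARNT2), 3 prolyl hydroxylases (EGLN1, EGLN2 and EGLN3), the ubiquitin ligase subunit VHL and the asparaginyl hydroxylase HIF1AN. They were chosen by name for their role, not by a measured value, although earlier results of these data were known. All 10 were found among the 17504 genes of the deposited tables. Whole-ovary RNA came from 3 Jintang black goats, described in the labels as prolific, and 3 Tibetan goats, a highland breed described there as non-prolific. All 6 goats (Capra hircus) were in the follicular phase, when follicles grow before ovulation. The labels give no treatment, age, altitude of keeping or handling of the tissue, and each library is 1 goat.

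In well-oxygenated cells the prolyl hydroxylases use oxygen to modify the HIF-alpha proteins, VHL binds the modified proteins, and the ubiquitin ligase it belongs to marks them for destruction. HIF1AN uses oxygen to modify another residue, which keeps coactivators away. When oxygen is scarce both modifications fail, HIF-alpha pairs with ARNT or ARNT2, and the pair switches on genes of glycolysis, vessel growth and oxygen delivery. In the mammalian ovary this pathway is known for driving VEGFA in the forming corpus luteum. In people of the Tibetan plateau, EPAS1 and EGLN1 are known as regions under selection at high altitude. The control acts on protein, so transcript levels measure neither HIF protein nor its activity.

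Expression was given in FPKM, which corrects a gene's fragments for transcript length and for the library's mapped total, so levels can be set side by side between genes. The sum of FPKM ran from 602511 to 669309 in Jintang and from 602255 to 682801 in Tibetan libraries. Absolute depth is not known, and the spacing of low values put relative depths between 0.925 and 1.005 of that of Tibetan 1. Of the markers of ovarian somatic cells, FOXL2, WT1 and NR5A1 were detected in all 6 ovaries, while FSHR was at 0 in Tibetan 1. Breed differences are given as the Jintang mean minus the Tibetan mean of log2(FPKM + 1), a scale that shrinks differences of weakly expressed genes. They were tested with limma over the 13067 genes that reached 1 FPKM in 3 or more libraries, at a Benjamini-Hochberg adjusted p under 0.05.

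No HIF subunit or oxygen sensor differed between the breeds by this test. All 10 were above the filter, 0 of 10 passed in either direction, and the same was true of the whole table, with percent called at 0 for Jintang higher and 0 for Jintang lower. At an unadjusted p under 0.05 there were also 0 of the 10 genes, where 6.17% of all genes tested reached it (2.82% with Jintang higher and 3.35% with Jintang lower). With array weights, without Jintang 3 or without Tibetan 3 the count was 1 of the 10, HIF3A. In these settings, in that order, 1227, 1874 and 1018 of the 13067 genes tested reached it, against 806 in the fit described. The ranges of the breeds overlapped in every one of the 10 genes, while 9.9% of all genes tested had ranges that did not overlap. The log2 differences of the 10 genes ran from -0.90 (HIF3A) to 0.72 (HIF1A), with 4 positive, 6 negative and a median of -0.11, close to the median of -0.10 over all genes tested. Scaling the libraries by median ratio shifted the median of all genes to 0.02, so each difference can also be read relative to the median: by that measure HIF1A stood at 0.82, EGLN3 at 0.80 and HIF3A at -0.81, and ARNT2 (0.01) and HIF1AN (-0.04) at the middle of all genes. The difference was larger than the pooled within-breed SD in 4 of the 10 genes (40.0%) and in 35.7% of all genes tested.

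**Figure D1:**
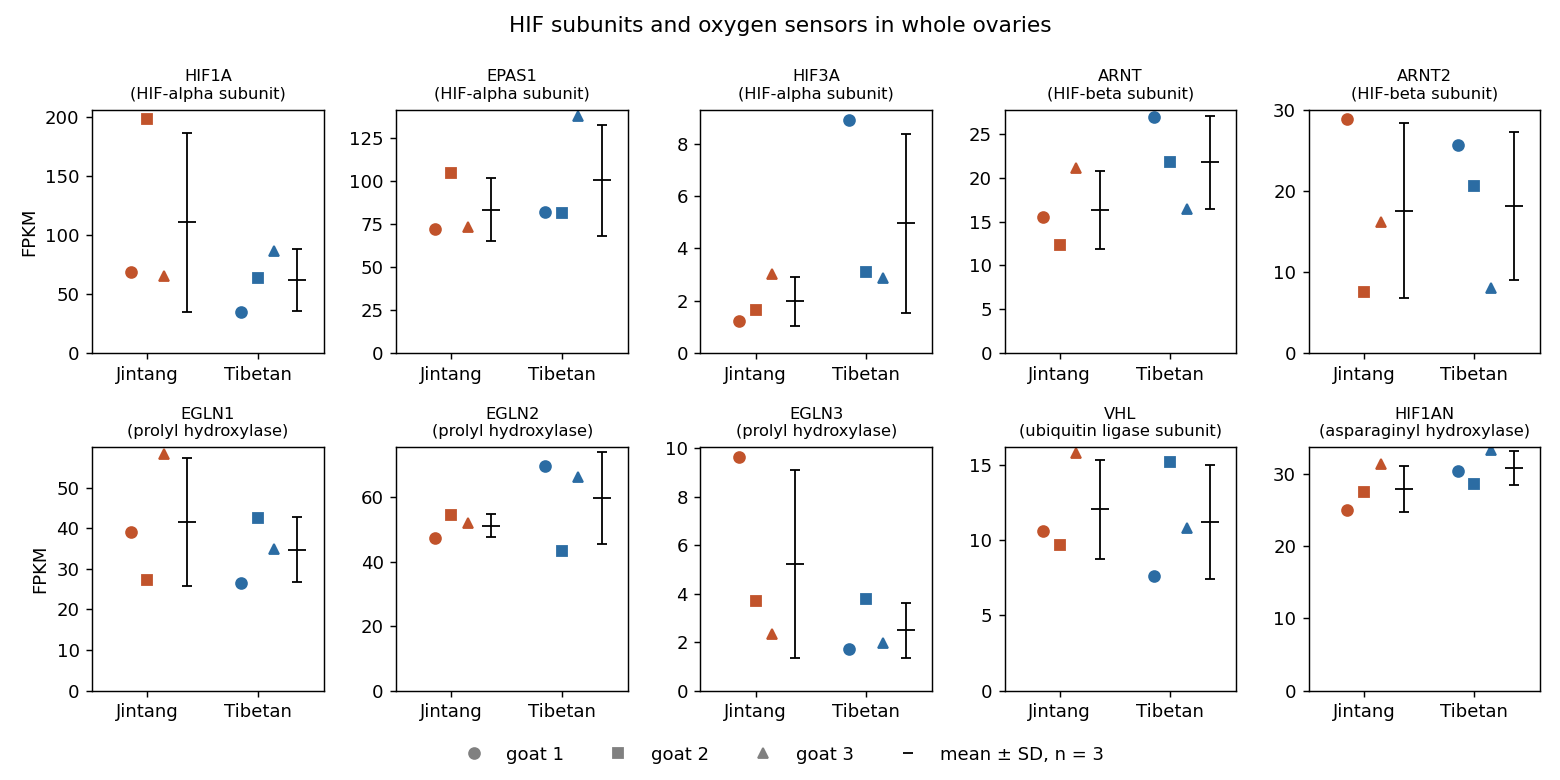
FPKM (y axis, from 0, own scale per gene) of each of the 10 genes in 3 Jintang and 3 Tibetan ovaries; symbols mark goats 1 to 3 and bars the mean ± SD (n = 3). The breeds overlap in all 10 panels, HIF1A is highest in Jintang 2 (198 FPKM), EGLN3 in Jintang 1 (9.63 FPKM) and HIF3A in Tibetan 1 (8.90 FPKM).

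HIF1A (GeneID 100861391), the broadly expressed alpha subunit that drives the glycolytic response, had 68.6, 198 and 65.6 FPKM in Jintang 1, 2 and 3, against 34.7, 64.1 and 87.0 FPKM in Tibetan 1, 2 and 3. Jintang 2 stood above every other ovary and Tibetan 1 below, while the other 4 lay close together across the breeds. The log2 difference was 0.72 (SE 0.51, 95% interval -0.44 to 1.89, limma adjusted p = 0.759). Without Jintang 2 it was 0.21. Jintang 2 also had the largest sum over the 7 luteal markers in the files, at 14783 FPKM, against between 253 and 1206 FPKM in the other Jintang ovaries and between 135 and 1754 FPKM in Tibetan ovaries. Jintang 2 was highest in 4 of the 7, the steroidogenic genes STAR (3130.4 FPKM), HSD3B1, CYP11A1 and SCARB1, which carry the sum. The other 3 were highest elsewhere. The prolactin receptor gene PRLR had 53.4 FPKM in Jintang 1 and 1.35 FPKM in Jintang 2, and the prostaglandin receptor gene PTGFR 274 FPKM in Jintang 1 and 259 FPKM in Jintang 2. The LH receptor gene LHCGR had 28.8 FPKM in Jintang 2 and 53.4 FPKM in Tibetan 3. All 7 had positive breed differences, and the part of steroid-producing cells in the HIF1A level was not tested. In whole-tissue RNA, more cells of a type and more RNA per cell cannot be told apart.

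EPAS1 (GeneID 102180230), also called HIF-2-alpha, is the alpha subunit best known from endothelial cells and from control of erythropoietin. It had 71.98, 104 and 73.2 FPKM in Jintang 1, 2 and 3, against 81.7, 81.3 and 138 FPKM in Tibetan 1, 2 and 3. Tibetan 3 was the highest ovary, Jintang 2 came next, and the other 4 spanned only 71.98 to 81.7 FPKM. The log2 difference was -0.24 (SE 0.32, 95% interval -0.97 to 0.49, limma adjusted p = 0.864), and without Tibetan 3 it was 0.0086. The summed FPKM of 14 endothelial markers, all detected in every library, was 696, 606 and 420 in Jintang 1, 2 and 3, against 394, 518 and 345 in Tibetan 1, 2 and 3. Jintang 2 was second highest in both the sum and EPAS1, Jintang 1 had the largest sum and the least EPAS1, and Tibetan 3 the smallest sum and the most EPAS1. The part of endothelial cells in the EPAS1 level was not tested.

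HIF3A (GeneID 102168854) encodes an alpha subunit some of whose splice forms, known from mouse and human, hold back the other HIFs. Its level was low, with 1.23, 1.67 and 3.04 FPKM in Jintang 1, 2 and 3, against 8.90, 3.10 and 2.89 FPKM in Tibetan 1, 2 and 3. Jintang 1 and 2 lay below all Tibetan ovaries, and Jintang 3 lay between Tibetan 3 and Tibetan 2. The log2 difference was -0.90 (SE 0.45, 95% interval -1.93 to 0.12), the largest in size among the 10 genes, with an unadjusted p of 0.0765 and a limma adjusted p of 0.743. Without Tibetan 1 it was -0.47. The unadjusted p from limma was 0.0462 with array weights, 0.0483 without Jintang 3 and 0.0484 without Tibetan 3, with adjusted p-values from 0.344 to 0.605. More of all 13067 genes tested were also under 0.05 in these settings, 1227, 1874 and 1018, against 806 in the fit described. The files give 1 value per gene, so the splice forms were not separated.

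Within each library the share of the alpha subunits differed between ovaries. HIF1A made up 48.4%, 65.1% and 46.2% of the summed alpha FPKM in Jintang 1, 2 and 3, against 27.7%, 43.2% and 38.3% in Tibetan 1, 2 and 3. EPAS1 made up 50.8%, 34.3% and 51.6% in the Jintang ovaries and 65.2%, 54.7% and 60.5% in the Tibetan ovaries. HIF3A held at most 2.14% in Jintang ovaries and 7.11% in Tibetan 1. EPAS1 was the most abundant of the 10 genes in 5 of the 6 ovaries, the exception being Jintang 2, where HIF1A came first.

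As a ratio, EPAS1 to HIF1A stood at 1.05, 0.527 and 1.12 in Jintang 1, 2 and 3, against 2.35, 1.27 and 1.58 in Tibetan 1, 2 and 3. The highest Jintang ratio was below the lowest Tibetan ratio, although neither gene alone separated the breeds. Ranges also did not overlap in 9.9% of the single genes tested, and the breeds overlapped in the other ratios examined. The mean log2 ratio was -0.23 ± 0.60 in Jintang and 0.75 ± 0.45 in Tibetan ovaries (SD, n = 3 each), a difference of -0.98. The exact permutation test (2-sided) gave p = 0.1, the smallest p that 3 ovaries against 3 allow, so the design could not reach the threshold, and adjusted over the 5 ratios examined it was 0.5. The gap between the groups was narrow, with Jintang 3 at 1.12 and Tibetan 2 at 1.27. A ratio within a library does not depend on how the library was scaled.

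**Figure D2:**
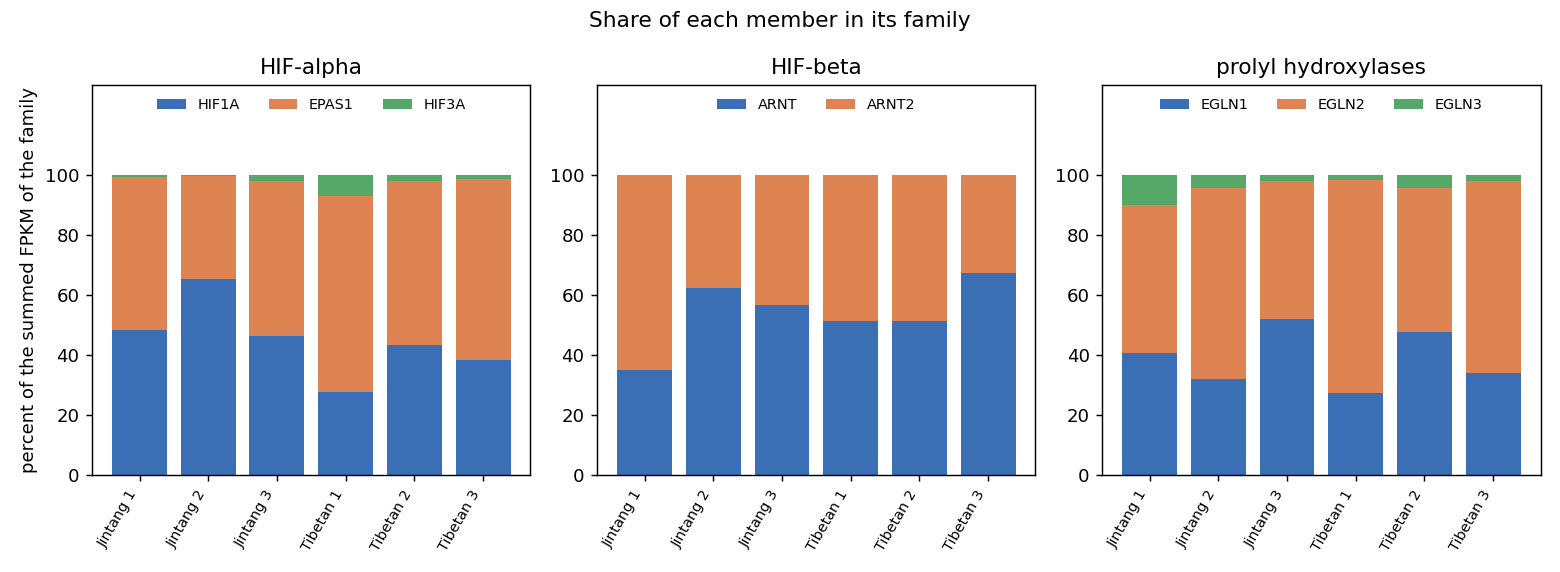
Share of each gene in the summed FPKM of its family (y axis, percent) in each of 6 ovaries (x axis), for the HIF-alpha subunits, the HIF-beta subunits and the prolyl hydroxylases. HIF1A holds 46.2% to 65.1% of the alpha sum in Jintang ovaries and 27.7% to 43.2% in Tibetan ovaries, and EGLN3 reaches 10.02% of the hydroxylase sum in Jintang 1.

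ARNT (GeneID 102183027), the general partner of the alpha subunits and of the dioxin receptor AHR, had 15.5, 12.3 and 21.1 FPKM in Jintang 1, 2 and 3, against 27.0, 21.8 and 16.4 FPKM in Tibetan 1, 2 and 3. The highest ovary was Tibetan 1 and the lowest Jintang 2, with Jintang 3 inside the Tibetan range. The log2 difference was -0.40 (SE 0.31, 95% interval -1.10 to 0.31, limma adjusted p = 0.775). ARNT2 (GeneID 102174701), a close relative known mostly from neural tissue and kidney, was nearly as abundant, at 29.0, 7.51 and 16.3 FPKM in Jintang and 25.8, 20.7 and 8.01 FPKM in Tibetan ovaries. It was high and low in both breeds, with Jintang 2 and Tibetan 3 as the low ovaries, and its log2 difference of -0.08 (95% interval -1.35 to 1.18) was 0.038 with median-ratio scaling.

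The alpha subunits exceeded the beta subunits in every ovary, and by very different factors. The ratio of the summed alpha to the summed beta FPKM was 3.19, 15.4 and 3.79 in Jintang 1, 2 and 3, and 2.38, 3.50 and 9.30 in Tibetan 1, 2 and 3. The ovaries with the largest ratios, Jintang 2 and Tibetan 3, had both the most HIF1A and EPAS1 and the least ARNT2. They were also the ovaries with the largest luteal marker sums, 14783 and 1754 FPKM, although not every marker was high in them. PTGFR was lowest of all in Tibetan 3, at 9.23 FPKM, and PRLR stood at 1.35 and 2.03 FPKM in Jintang 2 and Tibetan 3. Both ovaries had the largest theca marker sums as well, 9186 and 1885 FPKM, and STAR, CYP11A1 and LHCGR belong to both lists. Other markers set the 2 ovaries apart. The theca gene CYP17A1 had 4.24 FPKM in Jintang 2 and 719 FPKM in Tibetan 3. The granulosa genes INHA and CYP19A1 had 132 and 6.90 FPKM in Jintang 2, against 1194 and 15.6 FPKM in Tibetan 3. The part of steroid-producing cells in these ratios was not tested. ARNT2 to ARNT gave log2 ratios of -0.06 ± 0.85 in Jintang and -0.39 ± 0.56 in Tibetan ovaries (SD, n = 3 each; exact permutation p = 0.6).

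EGLN2 and EGLN1 made up most of the prolyl hydroxylase transcripts. EGLN2 (GeneID 102191264) had 47.4, 54.4 and 51.9 FPKM in Jintang 1, 2 and 3, against 69.7, 43.4 and 66.3 FPKM in Tibetan 1, 2 and 3. The Jintang values lay inside the Tibetan range, and the log2 difference was -0.19 (SE 0.28, 95% interval -0.83 to 0.44, limma adjusted p = 0.876). EGLN1 (GeneID 102189459), the main HIF hydroxylase of well-oxygenated cells, had 39.1, 27.2 and 58.4 FPKM in Jintang and 26.5, 42.5 and 34.9 FPKM in Tibetan ovaries. The Tibetan range was nearly contained in the Jintang range, and the log2 difference was 0.21 (SE 0.34, 95% interval -0.57 to 1.00, limma adjusted p = 0.890).

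EGLN3 (GeneID 102179524), a hydroxylase that HIF itself induces, was scarce. It had 9.63, 3.68 and 2.34 FPKM in Jintang 1, 2 and 3, against 1.72, 3.79 and 1.97 FPKM in Tibetan 1, 2 and 3. Jintang 1 stood apart, and the other 5 ovaries ran from 1.72 to 3.79 FPKM with the breeds mixed. The log2 difference of 0.70 (SE 0.47, 95% interval -0.39 to 1.79, limma adjusted p = 0.758) was 0.23 without Jintang 1. EGLN3 made up 10.02% of the hydroxylase sum in Jintang 1 and between 1.76% and 4.32% in the other ovaries. Jintang 1 was also the ovary with the highest level of 12 of 12 macrophage markers tested, whose sum was 1883 FPKM there, 223 and 459 FPKM in the other Jintang ovaries and between 128 and 375 FPKM in Tibetan ovaries. The endothelial and fibroblast marker sums were also largest in Jintang 1, at 696 and 11333 FPKM, with 7 of 14 and 6 of 10 markers highest there. The part of any of these cell types in the EGLN3 level was not tested.

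The total of the hydroxylases varied little, from 85.3 to 113 FPKM in Jintang and from 89.7 to 103 FPKM in Tibetan ovaries, while the summed alpha subunits ran from 142 to 304 FPKM in Jintang and from 125 to 227 FPKM in Tibetan ovaries. The ratio of alpha to hydroxylase transcripts was therefore highest in Jintang 2 (3.57) and Tibetan 3 (2.20), and between 1.26 and 1.66 in the other 4 ovaries. EGLN2 to EGLN1 averaged 0.37 ± 0.59 in Jintang and 0.78 ± 0.69 in Tibetan ovaries as log2 ratios (SD, n = 3 each; exact permutation p = 0.5). EGLN3 to EGLN1 averaged -3.18 ± 1.33 in Jintang and -3.86 ± 0.34 in Tibetan ovaries (SD, n = 3 each; exact permutation p = 0.5).

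VHL (GeneID 102182921), which recognises hydroxylated HIF-alpha, had 10.7, 9.71 and 15.8 FPKM in Jintang 1, 2 and 3, against 7.65, 15.2 and 10.8 FPKM in Tibetan 1, 2 and 3. Jintang 3 and Tibetan 2 were the high ovaries, 1 of each breed, and the log2 difference was 0.11 (SE 0.33, 95% interval -0.64 to 0.87, limma adjusted p = 0.937). The ratio of HIF1A to VHL was 20.4 in Jintang 2 and between 4.15 and 8.04 in the other 5 ovaries (exact permutation p = 0.7 between breeds on the log2 scale).

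HIF1AN (GeneID 102182662), known as factor inhibiting HIF, was the steadiest of the 10 genes. It had 25.02, 27.5 and 31.3 FPKM in Jintang 1, 2 and 3, against 30.4, 28.6 and 33.3 FPKM in Tibetan 1, 2 and 3. The highest ovary had only 1.33 times the level of the lowest, and Jintang 3 lay inside the Tibetan range. Its coefficient of variation over the 6 ovaries was 10.01%, and 1.48% of all genes tested varied less. The log2 difference was -0.14 (SE 0.24, 95% interval -0.69 to 0.41, limma adjusted p = 0.899).

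**Figure D3:**
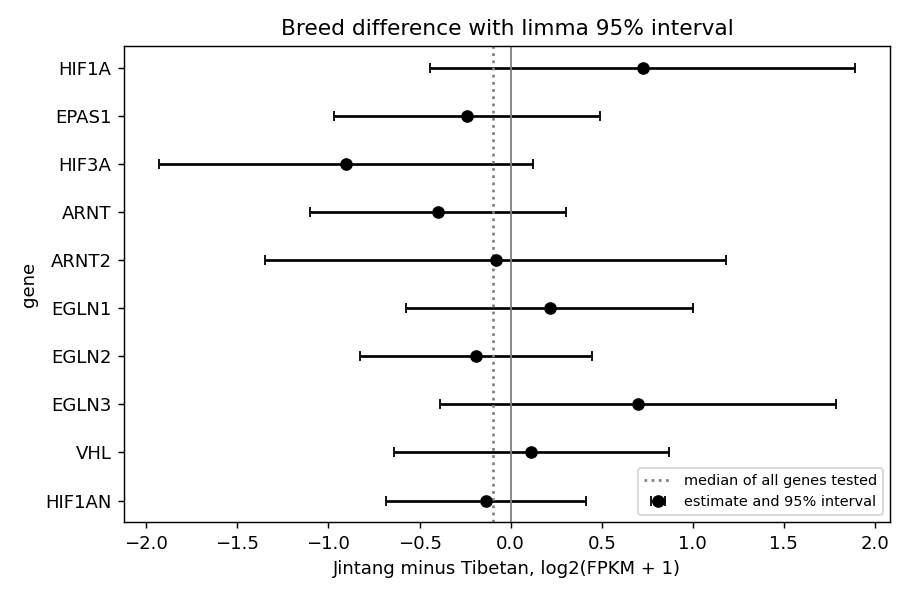
Breed difference of each of the 10 genes (x axis, Jintang minus Tibetan, log2(FPKM + 1)) with its limma 95% interval; the dotted line is the median of all genes tested (-0.10). All 10 intervals include 0, from HIF3A at -0.90 to HIF1A at 0.72.

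The genes differed in their variability over the 6 ovaries, a measure that includes any difference between the breeds. HIF3A, EGLN3 and HIF1A varied most, with coefficients of variation over the 6 ovaries of 79.8%, 76.8% and 66.3%, and ARNT2 followed at 50.1%. HIF3A, EGLN3 and HIF1A also had the largest log2 differences between the breeds in size (-0.90, 0.70 and 0.72). EPAS1, ARNT, VHL, EGLN1 and EGLN2 lay between 18.8% and 30.9%, below the median of 33.9% over all genes tested. Within Jintang goats alone HIF3A differed 2.47-fold, HIF1A 3.02-fold, ARNT2 3.86-fold and EGLN3 4.12-fold between the highest and the lowest ovary. In Tibetan goats these spans were 3.08-fold, 2.51-fold, 3.21-fold and 2.20-fold.

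By mean level over the 6 ovaries EPAS1 (91.7 FPKM) and HIF1A (86.4) came first, above 94.6% and 94.2% of all 17504 genes, followed by EGLN2 (55.5), EGLN1 (38.1), HIF1AN (29.3), ARNT (19.0), ARNT2 (17.9), VHL (11.6), EGLN3 (3.86) and HIF3A (3.47). Neighbours in this order changed places between ovaries. EGLN1 stood above EGLN2 in Jintang 3 only, ARNT2 above ARNT in Jintang 1 only, and HIF3A above EGLN3 in Jintang 3, Tibetan 1 and Tibetan 3. The step from HIF1A and EPAS1 down to VHL, EGLN3 and HIF3A held in every ovary.

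**Figure D4:**
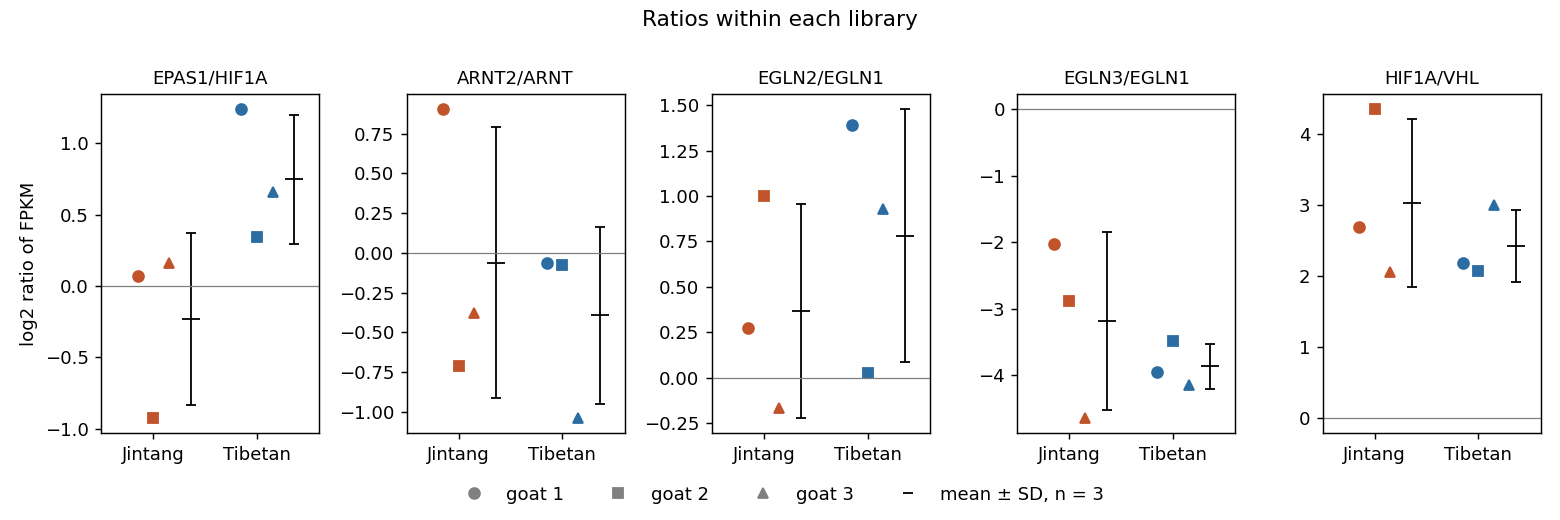
Log2 ratio of FPKM (y axis, own scale per panel) between pairs of the genes within each library; symbols mark goats 1 to 3 and bars the mean ± SD (n = 3). EPAS1 to HIF1A is the ratio of the 5 in which the breeds do not overlap (-0.23 ± 0.60 in Jintang, 0.75 ± 0.45 in Tibetan ovaries). Ranges did not overlap in 9.9% of the single genes tested.

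Other genes of the pathway were read from the same fit, and 0 passed in either direction (percent called 0 over all genes). Over all 13067 genes tested, 5362 log2 differences were positive and 7705 negative, with a median of -0.10. Of 15 subunits of the VHL ligase and regulators of HIF-alpha stability, 4 had positive and 11 negative log2 differences, with a median of -0.18. USP28, a deubiquitinase, averaged 15.2 ± 1.17 FPKM in Jintang and 26.7 ± 11.7 FPKM in Tibetan ovaries (SD, n = 3 each). The ubiquitin ligase genes SIAH1 and SIAH2, whose proteins degrade prolyl hydroxylases, averaged 12.3 ± 5.63 and 26.9 ± 4.24 FPKM in Jintang ovaries, and 21.3 ± 8.68 and 37.9 ± 7.62 FPKM in Tibetan ovaries. HSP90AA1, whose chaperone protein binds and stabilises HIF1A, averaged 525 ± 136 FPKM in Jintang and 863 ± 286 FPKM in Tibetan ovaries. The ranges did not overlap for USP28, with Jintang below, the single such gene of the 15, where 6.7% of all genes tested had Jintang below. They overlapped for the other 3 genes named, and each of the 4 had a limma adjusted p of 0.743. RACK1, which has been described as an oxygen-independent route of HIF1A decay, was the most abundant of the list, at 2388 ± 753 FPKM in Jintang and 2498 ± 758 FPKM in Tibetan ovaries.

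Among 15 tested coactivators, inhibitors and relatives of the HIF subunits, 6 log2 differences were positive and 9 negative. The median was -0.16, against -0.10 over all genes tested. Of the 15, 1 gene had an unadjusted p under 0.05, as did 6.17% of all genes tested. That gene was CITED1, a transcriptional cofactor of the same family as the HIF inhibitor CITED2, at 52.0, 50.6 and 9.94 FPKM in Jintang 1, 2 and 3 and 2.90, 4.49 and 19.6 FPKM in Tibetan 1, 2 and 3. It had a log2 difference of 2.03 (SE 0.77, limma adjusted p = 0.743), and the breeds overlapped. CITED2 itself averaged 56.2 ± 32.8 and 42.4 ± 15.9 FPKM in Jintang and Tibetan ovaries. The acetyltransferases EP300 and CREBBP, coactivators that HIF1AN keeps from HIF-alpha, averaged 16.0 ± 3.44 and 20.1 ± 7.64 FPKM in Jintang ovaries and 22.3 ± 3.93 and 25.7 ± 6.68 FPKM in Tibetan ovaries. NCOA1, a nuclear receptor coactivator, was the single gene of the 15 whose ranges did not overlap, with Jintang below, as in 6.7% of all genes tested. It stood at 10.7 ± 2.60 FPKM in Jintang and 15.02 ± 1.99 FPKM in Tibetan ovaries (adjusted p = 0.743 with limma).

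Of 23 other oxygen-using dioxygenases, 8 had positive and 15 negative log2 differences. The median was -0.20, against -0.10 over all genes tested. Of the 23, 1 gene had an unadjusted p under 0.05, as did 6.17% of all genes tested. JMJD6, a nuclear lysyl hydroxylase, had 17.6, 22.5 and 20.8 FPKM in Jintang 1, 2 and 3, against 37.8, 29.3 and 37.8 FPKM in Tibetan 1, 2 and 3. The breeds did not overlap, with Jintang below (log2 difference -0.75, SE 0.25, limma adjusted p = 0.743), as for 2 of the 23 genes and 6.7% of all genes tested. The histone demethylases KDM6A and KDM3B averaged 10.6 ± 4.15 and 15.4 ± 5.58 FPKM in Jintang ovaries, and 16.2 ± 4.71 and 22.0 ± 5.46 FPKM in Tibetan ovaries. P4HTM, a membrane-bound prolyl hydroxylase related to the EGLN genes, averaged 18.0 ± 4.48 FPKM in Jintang and 26.1 ± 8.30 FPKM in Tibetan ovaries. With median-ratio scaling the median of these dioxygenases was -0.08.

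More HIF target genes had positive than negative log2 differences, without passing the test. Of 43 tested, 32 were positive and 11 negative, where 5362 of the 13067 genes tested were positive and 7705 negative. The median was 0.28 against -0.10 over all genes tested, and 0 passed. Unadjusted p-values under 0.05 were found for 3 with positive differences (2.82% of all genes tested) and 1 with a negative difference (3.35% of all genes), and ranges did not overlap in 5 with Jintang above (3.2% of all genes tested) and 1 with Jintang below (6.7% of all genes). Markers of some other cell types were mostly positive too. Differences were positive in 12 of 14 endothelial markers (median 0.50), 12 of 12 macrophage markers (median 1.23) and 10 of 10 fibroblast markers (median 1.11). Luteal markers were positive in 7 of 7 (median 1.83). Smooth muscle and pericyte markers had 6 positive and 7 negative (median -0.24). Granulosa markers had 6 positive and 5 negative, and theca markers 3 positive and 2 negative. TEK, FLT1 and KDR belong to both the target and the endothelial list, and the part of any of these cell types in the target levels was not tested. The collagen crosslinking enzyme gene LOX had 16.1, 22.1 and 7.38 FPKM in Jintang 1, 2 and 3, against 3.47, 3.69 and 5.43 FPKM in Tibetan 1, 2 and 3 (log2 difference 1.54, SE 0.41, limma adjusted p = 0.743). The glucose transporter SLC2A3 averaged 29.5 ± 17.5 FPKM in Jintang and 10.3 ± 2.98 FPKM in Tibetan ovaries. STC2, a secreted glycoprotein, averaged 5.35 ± 4.12 and 0.82 ± 0.36 FPKM in Jintang and Tibetan ovaries, and the lipoprotein receptor VLDLR 14.1 ± 16.9 and 3.01 ± 1.07 FPKM. ANGPTL4, an inhibitor of lipoprotein lipase, was the gene with Jintang below, at 18.8 ± 7.64 FPKM in Jintang and 30.8 ± 2.20 FPKM in Tibetan ovaries. VEGFA, the vessel growth factor, had 17.3, 44.7 and 12.1 FPKM in Jintang 1, 2 and 3, against 18.3, 9.98 and 47.5 FPKM in Tibetan 1, 2 and 3, with a log2 difference of 0.03.

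Which ovary stood highest differed among the targets. Jintang 1, where EGLN3 was highest, had the highest value of 17 of the 43 targets (39.5%, against 12.6% of all genes tested), among them PFKFB3, ADM, EDN1, NDRG1, PDK1 and VLDLR. Jintang 2, where HIF1A was highest, had the highest value of 11 (25.6%, against 20.6% of all genes), among them the glycolysis genes LDHA, PGK1, ENO1, TPI1 and GAPDH. Other glycolysis genes were highest elsewhere, GPI and HK2 in Jintang 1, and HK1 and ALDOA in Tibetan 3. Jintang 2 also had the lowest value of 8 targets (18.6%, against 25.9% of all genes). Tibetan 3, where EPAS1 was highest, had the highest value of 8 (18.6%, against 18.0% of all genes), including VEGFA, ALDOA and DDIT4. Tibetan 1 had the highest value of 0 targets (21.9% of all genes) and the lowest of 13 (30.2%, against 20.8% of all genes). It had the least HIF1A, EGLN1, EGLN3 and VHL, and the most HIF3A, ARNT and EGLN2. Tibetan 1 was also lowest in 10 of 12 macrophage, 9 of 14 endothelial and 6 of 7 luteal markers. It was lowest in 2 of 10 fibroblast markers and 1 of 13 smooth muscle and pericyte markers. The part of these cells in the target levels of Tibetan 1 was not tested. The median over the targets was 0.15 without Jintang 1 and 0.60 without Jintang 3. The 10 fibroblast markers summed to between 3716 and 11333 FPKM in Jintang and between 2225 and 3932 FPKM in Tibetan ovaries. Their sum was largest in Jintang 1, where VLDLR was also highest, while LOX was highest in Jintang 2. The part of fibroblasts in the levels of LOX and VLDLR was not tested.

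**Figure D5:**
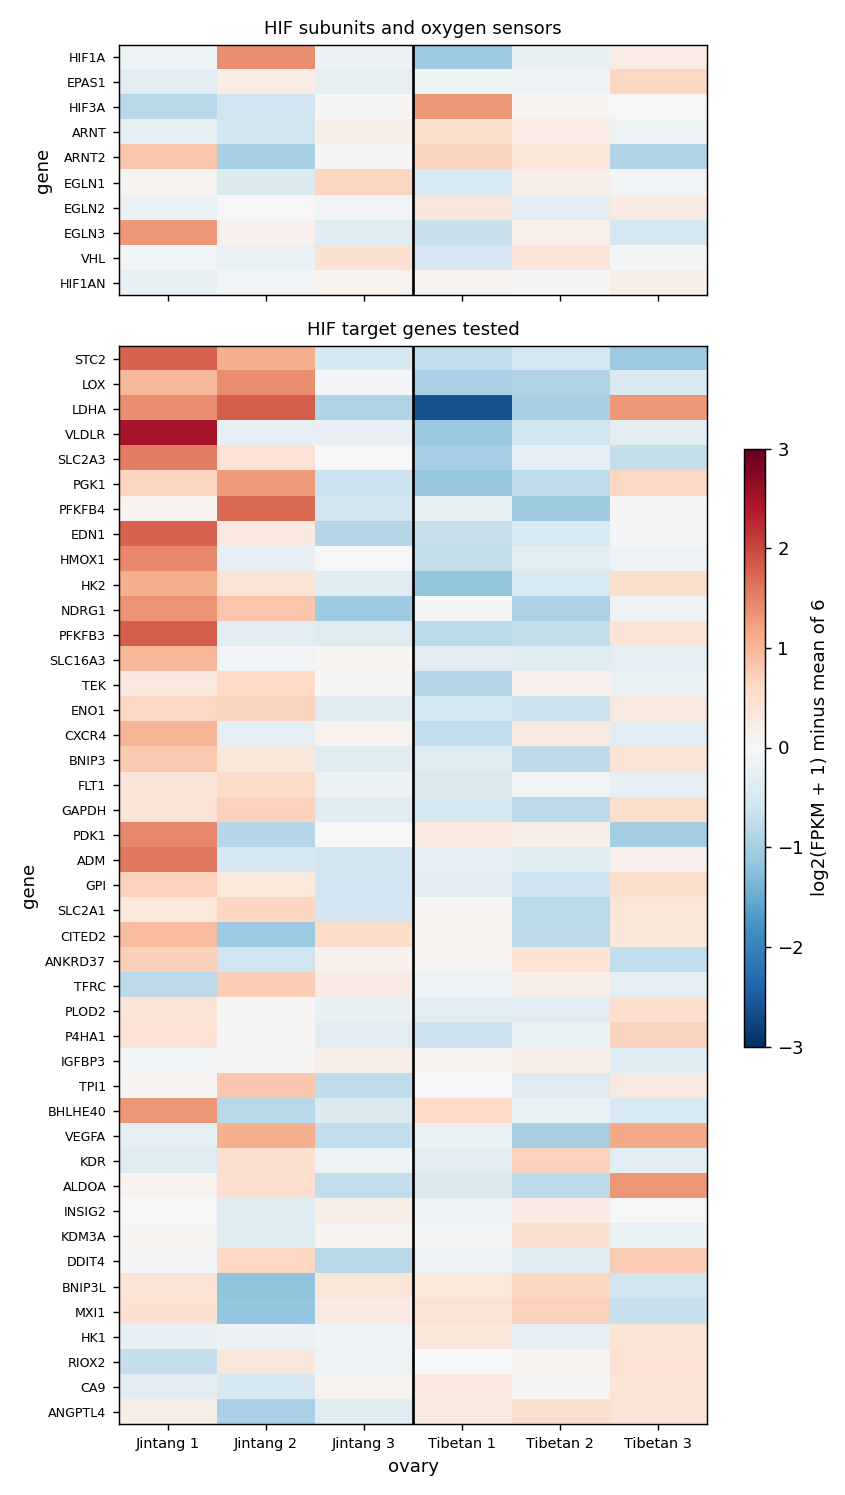
Level of each gene (rows) in each ovary (columns) as log2(FPKM + 1) minus the mean of the 6 ovaries, for the 10 HIF subunits and oxygen sensors (top) and the 43 HIF targets tested (bottom, ordered by breed difference); the vertical line separates Jintang from Tibetan ovaries. Jintang 1 holds the highest value of 17 targets and Tibetan 1 of 0, while the 10 genes above show no column that is high or low throughout.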

How the data were processed

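Per the labels' protocols, ovarian RNA was extracted with TRIzol and an NEBNext kit was used for the libraries. The authors deposited 1 table of FPKM values per goat. RSEM 1.2.0, Bowtie2 2.1.0 and TopHat2 2.0.10 are named in the submitters' processing notes, with no step assigned to any. For build, annotation and strand the sources used here give nothing. A table of the whole series was not used. The name of the table of Tibetan 2 follows a different scheme from the rest.

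Symbols came from the RefSeq gene table of goat assembly ARS1.2 (16459 GeneIDs matched by ID, 9 by transcript accession, 1036 unmatched). All 10 genes matched by GeneID. In that assembly 3 of them overlap a tRNA gene and 0 any other gene. Of 201 list entries 182 matched, 9 of them through an older or alternative name.

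Genes with at least 1 FPKM in 3 libraries (13067) were fitted with limma 3.58.1 in R 4.3.3 (eBayes with trend) on log2(FPKM + 1), breed as the only term, 2-sided. The fit was run on simulated data with planted shifts and noise drawn independently for each gene. That run does not measure the power to find differences in these ovaries. The 5 ratios were tested with exact permutation over libraries (scipy 1.17.1), 2-sided, and Benjamini-Hochberg adjusted over 5. The genes and lists were chosen with earlier results of these data known. The text names all 10 genes and, of each pathway list, genes among the 6 with the smallest p and the 3 with the highest mean level. LDHA, PGK1, VEGFA and the other targets listed by their highest ovary were named after their values were seen, as were EPO, CA9 and the luteal, theca, granulosa and endothelial markers. Of the 3 erythroid markers in the files, 0 passed the filter. 1 further target gene is not reported here.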

Additional observations from a re-analysis of the deposited data

How the results depend on the processing

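None of the 10 genes passed in any of the 16 alternatives, which were other pseudocounts (0.1 and 0.01), no filter or one of 5 FPKM (under which HIF3A and EGLN3 were not tested), scaling by median ratio, to TPM or by quantiles, eBayes with no trend, array weights, a replicate block, and each library left out. Over all genes, 0 were called in every setting except that leaving out a library gave 0 to 13 higher in Jintang ovaries (13 without Jintang 3). In the fit described, limma gave 806 genes an unadjusted p under 0.05. At an unadjusted p under 0.05 the count of the 10 genes was 0, or 1 (HIF3A) with array weights, without Jintang 3 and without Tibetan 3. Over all 13067 genes tested the counts in those settings were 1227, 1874 and 1018. The 4 pathway lists had 0 calls throughout. Signs were kept in all alternatives for HIF1A (0.21 to 1.01 with a library left out), HIF3A (-1.15 to -0.47), ARNT (-0.59 to -0.22), EGLN2 (-0.40 to -0.07), EGLN3 (0.23 to 1.06) and HIF1AN (-0.22 to -0.06). With median-ratio scaling the difference of HIF1AN shrank to -0.013 (SE 0.22). Signs turned with a library left out for EPAS1 (-0.41 to 0.0086), ARNT2 (-0.55 to 0.39), EGLN1 (-0.059 to 0.48) and VHL (-0.11 to 0.34), and for ARNT2 with median-ratio scaling (0.038). The cause was not tested. Median-ratio scaling turned the split at an unadjusted p under 0.05 to 456 higher and 308 lower, against 368 and 438.

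The log2 ratio of EPAS1 to HIF1A stayed between -1.18 and -0.63 with a library left out. The ratio of ARNT2 to ARNT ran from -0.15 to 0.66, EGLN2 to EGLN1 from -0.79 to -0.11, EGLN3 to EGLN1 from 0.10 to 1.41 and HIF1A to VHL from -0.051 to 1.097. Goats share replicate numbers across breeds, but nothing pairs them. Deviations of same-numbered goats correlated at -0.02, -0.21 and -0.47 over genes. With the replicate block limma called 0 genes and gave 581 an unadjusted p under 0.05. For EPAS1 to HIF1A, at a log2 difference of -0.98, the exact paired sign-flip permutation test gave p = 0.25, its smallest possible value. Precision is limited by 3 goats per breed.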

Other observations

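Genes whose pattern over the 6 ovaries was most like that of 3 of the HIF pathway genes were listed by Pearson correlation of log2(FPKM + 1), as a description. Closest to HIF1A were ETFDH, an enzyme that passes electrons into the respiratory chain, NDUFA2, a subunit of complex I, and MTFR2, a mitochondrial fission regulator. ETFDH had 16.1, 32.6 and 16.7 FPKM in Jintang 1, 2 and 3, against 10.8, 15.9 and 20.0 FPKM in Tibetan 1, 2 and 3, with Jintang 2 highest and Tibetan 1 lowest, as for HIF1A. Closest to EPAS1 were PDF, VAT1L and GPAT3, an enzyme of triacylglycerol synthesis. GPAT3 had 11.7, 22.6 and 12.3 FPKM in Jintang 1, 2 and 3, against 15.2, 12.3 and 37.6 FPKM in Tibetan 1, 2 and 3. Closest to EGLN3 were BCL6B, a transcriptional repressor, UGCG, the glucosylceramide synthase, and ATP8B1, a phospholipid flippase. BCL6B had 26.9, 9.99 and 6.18 FPKM in Jintang 1, 2 and 3, against 4.49, 10.6 and 5.02 FPKM in Tibetan 1, 2 and 3. The genes named were not alone in their likeness, which rests on only 6 ovaries. Of the genes tested, 169 (1.29%), 45 (0.34%) and 47 (0.36%) had a coefficient over 0.95 with HIF1A, EPAS1 and EGLN3.

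Erythropoietin (EPO), the hormone gene that HIF controls in the kidney, was barely detected, with 0.14 FPKM in Jintang 1 and in Jintang 2, and listed at 0 in Jintang 3 and in all Tibetan ovaries. CA9, a carbonic anhydrase often used as a mark of hypoxia, had 1.74, 1.49 and 2.72 FPKM in Jintang 1, 2 and 3, against 3.28, 2.54 and 3.54 FPKM in Tibetan 1, 2 and 3. These levels were low, the breeds overlapped, and the log2 difference was -0.48 (SE 0.31, limma adjusted p = 0.756).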
